A study of Mus musculus with 6 samples.

Results

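The tubulin isotypes described here are 10 genes, the alpha-tubulins Tuba1a, Tuba1b, Tuba1c, Tuba4a and Tuba8 and the beta-tubulins Tubb2a, Tubb2b, Tubb3, Tubb4b and Tubb6. They were chosen by name as members of the family and not by a rule on their values, though earlier results of these data were known. Each is represented by 1 transcript cluster, the set of array probes that is summarized into 1 signal, out of 65956 clusters tested. All 10 genes had a cluster whose annotation holds no other member of the family, and where a gene had several the brightest over the 6 arrays was taken. For 9 of them that cluster carries no other gene symbol. The Tuba1b cluster is also annotated to the pseudogene Gm5620, so its signal cannot be assigned to Tuba1b alone.

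RNA came from left ventricles of 6 male C57/Bl6 mice, of which 3 received AAV9-GFP and 3 AAV9-Rbm24, and each heart was measured on 1 Affymetrix Mouse Transcriptome Array. Both groups had received the same dose, 4000000000000 viral genomes (vg) intraperitoneally at 1 week of age, and were killed 2 weeks later. AAV9 is a viral vector that in the heart mainly transduces cardiomyocytes. The Rbm24 vector carried a flag-tagged mouse open reading frame behind a CMV promoter, which is not restricted to one cell type, and the controls carried GFP. Rbm24 is an RNA-binding protein that regulates splicing and mRNA stability in striated muscle, and the comparison asks which genes differ in hearts that express more of it. Values are log2 signals, so that a difference of 1 is a doubling. Differences were tested with limma, which fits a linear model per cluster and shares variance information between clusters, with Benjamini-Hochberg adjustment across the whole array.

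Microtubules are hollow polymers of alpha- and beta-tubulin dimers. Mammals encode each subunit in several genes, the isotypes, which differ mostly in their acidic C-terminal tails and in the tissues that express them. In the cardiomyocyte, microtubules form a lattice around the nucleus and between the myofibrils that carries transport and resists shortening during contraction, and the share of detyrosinated microtubules, which are tied to desmin at the sarcomere, is known to rise in failing hearts. Cells also adjust their tubulin mRNA to the amount of free dimer, through the ribosome-associated factor Ttc5.

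The group labels and the tissue were checked first. Rbm24 had a log2 signal of 13.95, 13.63 and 13.57 in hearts given AAV9-GFP and of 14.58, 14.74 and 15.12 in those given AAV9-Rbm24, with no overlap (adjusted p = 0.0607 from limma). The ventricular genes Myl2 and Myl3 were bright in all 6 hearts (13.58 to 13.72 and 16.49 to 16.81), whereas the atrial genes Myl4, Myl7 and Sln lay between 5.12 and 6.02, near the array medians of 5.49 to 5.67. The other atrial gene of that list, Nppa, which encodes atrial natriuretic peptide and is also known to be induced in stressed ventricle, was bright in all hearts, at 15.76, 15.03 and 17.56 with AAV9-GFP and 18.58, 18.81 and 19.23 with AAV9-Rbm24 (log2 difference 2.76, adjusted p = 0.149 from limma). The array of AAV9-GFP replicate 2 stood apart on the first principal component (-64.3). It was the highest array for 35.6% of all clusters, where each other array was so for 11.6% to 13.7%. Among clusters whose mean log2 signal reached 8 it was the highest for 8.16%. It was the lowest array for 17% of all clusters and for 43.1% of those that bright. At the other end lay AAV9-Rbm24 replicate 3 (41.4, with the remaining arrays from -9.7 to 16.8). That array was the lowest for 22.2% of all clusters and for 22.1% of those that bright. Ventricular tissue holds many cell types, and in such bulk RNA fewer cells of a type and less RNA per cell cannot be told apart.

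None of the 10 tubulin isotypes passed an adjusted p of 0.05 in either direction, a threshold at which 0.241% of all clusters were higher and 0.0258% lower in the AAV9-Rbm24 hearts. The smallest adjusted p among the isotypes was 0.516 (limma). Means were higher with AAV9-Rbm24 for 7 isotypes and lower for 3, and the median log2 difference of the 10 was 0.18, beside -0.03 for all clusters. At an unadjusted p under 0.05 (limma), 1 isotype was higher, Tubb2b, and none was lower, where 4.08% and 4.33% of all clusters were. The study's methods set for genes a fold of at least 1.5 together with an unadjusted p under 0.05 from an analysis of variance. With the limma p in its place, no isotype reached these thresholds, which 1.23% of clusters passed upward and 0.552% downward. With the replicate number as a block, Tuba4a passed them downward (-0.71, unadjusted p = 0.00157, adjusted p = 0.165 from limma). In that fit 0.582% of clusters did so. Between same-numbered hearts, Tubb2a and Tubb2b were higher and Tuba4a and Tuba8 lower with AAV9-Rbm24 in all 3 pairs. The share of all clusters that kept 1 direction in all 3 pairs was not counted. The labels do not say what the numbers share. In the comparison without a block, the spread between hearts limits what the values exclude. The 95% intervals of 9 isotypes include 0. Those of Tuba1a, Tuba1b, Tuba1c, Tuba4a, Tuba8, Tubb2a, Tubb2b, Tubb4b and Tubb6 include a 1.5-fold difference in at least 1 direction (0.58 on the log2 scale). Signals of different clusters rest on different probes and were not compared with each other.

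**Figure D1:**
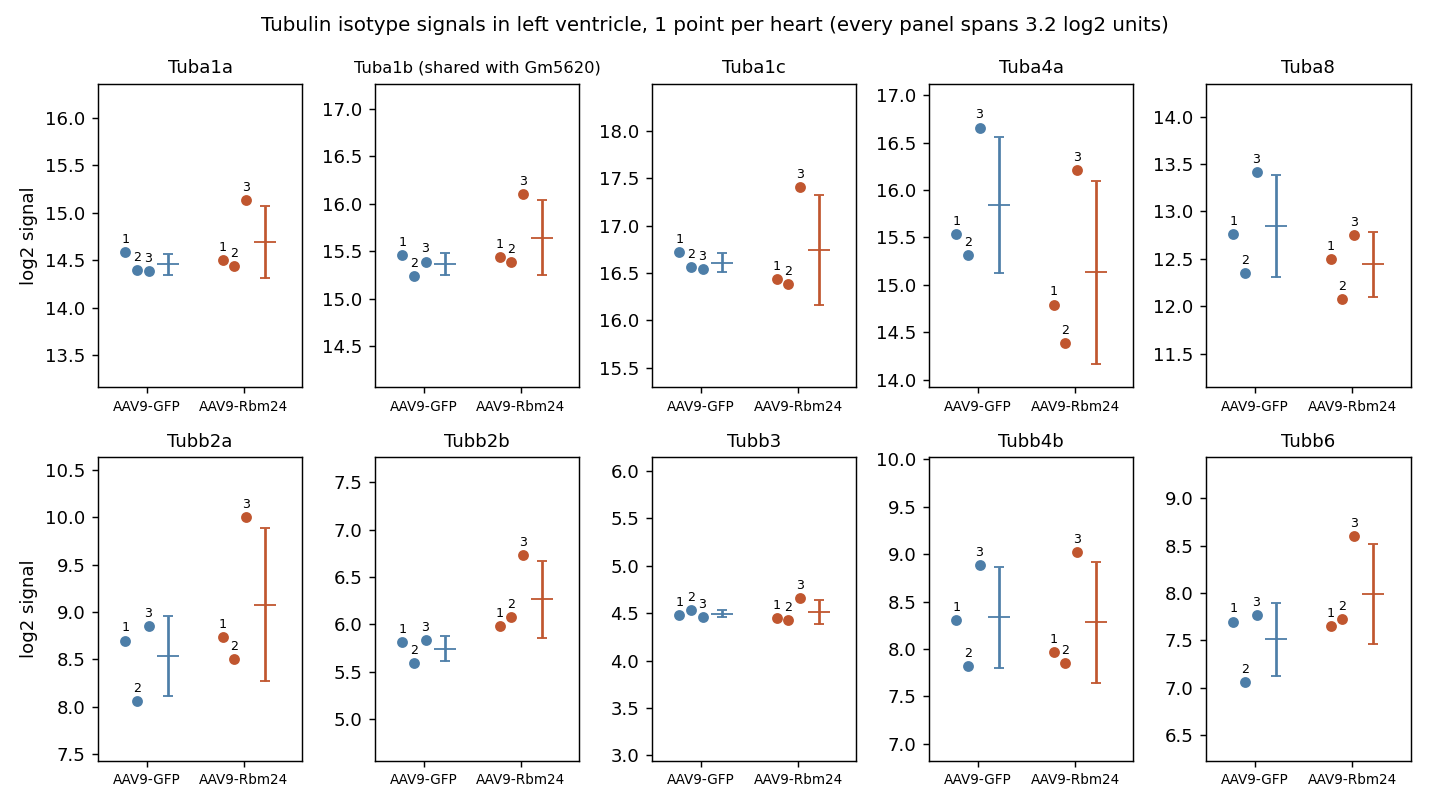
Log2 signal (vertical axis) of the 10 tubulin isotypes in 3 AAV9-GFP (blue) and 3 AAV9-Rbm24 hearts (orange), 1 point per heart with its replicate number, and the mean with its SD at the right of each group. The groups overlap for every isotype but Tubb2b, and AAV9-Rbm24 replicate 3 is the highest heart for all but Tuba4a and Tuba8.

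Among the alpha-tubulins, Tuba1a, Tuba1b and Tuba1c are near-identical paralogs that neighbour each other in the genome, and probes may not separate their transcripts completely. Tuba1a, the main alpha-tubulin of developing neurons, had log2 signals of 14.59, 14.39 and 14.39 in hearts given AAV9-GFP and of 14.50, 14.45 and 15.13 in those given AAV9-Rbm24. Only AAV9-Rbm24 replicate 3 lay above the AAV9-GFP range. The log2 difference was 0.24 (95% interval -0.20 to 0.67, adjusted p = 0.792 from limma). The cluster shared by Tuba1b, a ubiquitous alpha-tubulin, and Gm5620 had log2 signals of 15.46, 15.23 and 15.39 with AAV9-GFP and of 15.44, 15.39 and 16.10 with AAV9-Rbm24. Again the third AAV9-Rbm24 heart stood alone, 0.69 above the mean of the other AAV9-Rbm24 hearts, and the log2 difference between groups was 0.28 (-0.17 to 0.73, adjusted p = 0.754 from limma). Without that heart the log2 differences were 0.02 for Tuba1a and 0.05 for the Tuba1b cluster.

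Tuba1c has 2 clusters of its own, and they gave different pictures. The brighter one, used here by rule, had log2 signals of 16.72, 16.56 and 16.54 in hearts given AAV9-GFP and of 16.43, 16.38 and 17.41 in those given AAV9-Rbm24. AAV9-Rbm24 replicates 1 and 2 were thus below every AAV9-GFP heart and replicate 3 above every one, so that the log2 difference of 0.13 (-0.47 to 0.73, adjusted p = 0.933 from limma) turned to -0.20 without replicate 3. The identifier of this cluster is numbered for chromosome 13, whereas RefSeq (GRCm38.p6) places Tuba1c on chromosome 15. Identifier and RefSeq chromosome are the same for 99.7% of 29067 autosomal clusters with 1 symbol. The other Tuba1c cluster, numbered for chromosome 15, had log2 signals of 13.09, 12.77 and 12.99 with AAV9-GFP and of 13.22, 13.11 and 13.77 with AAV9-Rbm24. Here the groups did not overlap (p = 0.1 by an exact two-sided permutation test, which cannot go lower with 3 hearts per group), and the log2 difference was 0.41 (-0.01 to 0.84, adjusted p = 0.609 from limma). Groups did not overlap for 7.01% of all clusters in the upward direction. The second cluster was singled out after its values were seen.

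Tuba4a and Tuba8 were the alpha-tubulins with lower means in the AAV9-Rbm24 hearts. Tuba4a, whose encoded protein lacks the C-terminal tyrosine that most other alpha-tubulins carry, had log2 signals of 15.54, 15.32 and 16.66 in hearts given AAV9-GFP and of 14.79, 14.38 and 16.22 in those given AAV9-Rbm24. Replicate 3 was the highest heart in each group, 1.23 above the mean of the other hearts with AAV9-GFP and 1.63 with AAV9-Rbm24. The groups overlapped through AAV9-Rbm24 replicate 3 alone. The log2 difference was -0.71 (-1.88 to 0.46, adjusted p = 0.765 from limma), the largest in size of the 10 isotypes. It was -1.25 without AAV9-Rbm24 replicate 3, -0.30 without AAV9-GFP replicate 3 and -0.97 without AAV9-GFP replicate 2. Tuba8, an alpha-tubulin found mainly in heart, skeletal muscle and testis, had log2 signals of 12.76, 12.35 and 13.42 with AAV9-GFP and of 12.50, 12.08 and 12.75 with AAV9-Rbm24. AAV9-GFP replicate 3 was the highest heart and the groups overlapped. The log2 difference was -0.40 (-1.05 to 0.24, adjusted p = 0.758 from limma), and it was -0.12 without AAV9-GFP replicate 3.

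Upstream sequences are shown for alpha-tubulins whose mean differences had opposite signs, none of them past the test, Tuba1a and Tuba1b (higher means) and Tuba8 (lower mean). They were picked after the values were seen. RefSeq promoter windows (GRCm38.p6) were found for 8 of the 10 isotypes, all but Tubb2b and Tubb6. Each line gives the 150 bases that end just before the annotated transcript start, 5′ to 3′, in lower case, with matches on either strand to the motif CCAAT, to the motif of the TATA box (spelled TATAAA) and to that of the GC box (spelled GGGCGG) in capitals. These motifs were searched as exact letters, none of the matches printed overlaps another, and the starts used in the heart may differ from the annotated ones.
Tuba1a: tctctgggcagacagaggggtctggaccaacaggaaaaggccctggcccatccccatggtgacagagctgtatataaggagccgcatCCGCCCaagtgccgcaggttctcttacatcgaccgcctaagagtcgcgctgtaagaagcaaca
Tuba1b: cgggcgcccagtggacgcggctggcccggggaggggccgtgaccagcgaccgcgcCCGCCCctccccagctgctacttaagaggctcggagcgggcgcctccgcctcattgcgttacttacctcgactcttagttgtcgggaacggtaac
Tuba8: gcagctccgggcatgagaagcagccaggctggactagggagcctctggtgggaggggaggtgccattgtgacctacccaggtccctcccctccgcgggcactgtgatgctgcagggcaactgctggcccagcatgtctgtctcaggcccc
The windows are chr15:98953502-98953651 (minus strand), chr15:98934391-98934540 (minus strand) and chr6:121210584-121210733 (plus strand). GGGCGG occurs once in each of the Tuba1a and Tuba1b windows and not in that of Tuba8. In windows of the same length that are not printed, Tuba4a (lower mean) holds it 2 times and Tuba1c (higher mean) does not hold it. Neither of the other motifs lies in the 3 windows printed. Over the 250 bases before the start, 6 of the 8 isotypes with a window and 32.7% of 32851 promoters of the genome held GGGCGG. Those 6 were Tuba1a, Tuba1b, Tuba4a, Tubb2a, Tubb3 and Tubb4b. CCAAT was found in 4 of 8 (Tuba1a, Tuba1c, Tubb3 and Tubb4b) and in 33.8%, and TATAAA in 1 of 8 (Tubb2a) and in 12.4%. The window of Tuba4a belongs to a start inside the annotated gene and is counted but not printed. A match is a stretch of letters, and binding was not measured.

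**Figure D2:**
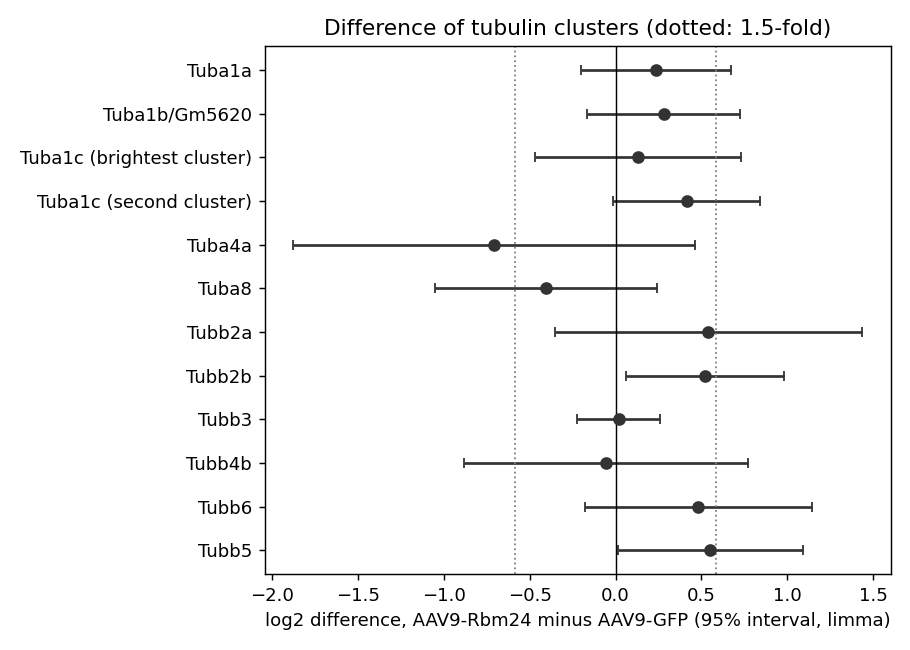
Log2 difference (horizontal axis, AAV9-Rbm24 minus AAV9-GFP) with its 95% interval from limma for the tubulin clusters, both Tuba1c clusters and Tubb5 included, n = 3 hearts per group, and dotted lines at 1.5-fold. Only the intervals of Tubb2b (0.06 to 0.98) and Tubb5 (0.01 to 1.09) exclude 0, both before adjustment for the number of clusters.

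Beta-tubulins had higher means with AAV9-Rbm24 for 4 of 5 isotypes. Tubb2b, a neuronal isotype that is also expressed during development, had log2 signals of 5.81, 5.59 and 5.83 in hearts given AAV9-GFP and of 5.98, 6.08 and 6.73 in those given AAV9-Rbm24. It was the only isotype whose groups did not overlap (p = 0.1, exact two-sided permutation test), 1 of 10, near the 7.01% of all clusters without overlap upward and the 14.7% in either direction. The log2 difference was 0.52 (0.06 to 0.98), a fold of 1.43, with an unadjusted p = 0.0311 and an adjusted p = 0.516 (limma), and it was 0.29 without AAV9-Rbm24 replicate 3. The unadjusted p was 0.0540 without AAV9-GFP replicate 1, 0.105 without AAV9-GFP replicate 2 and 0.0606 without AAV9-Rbm24 replicate 3 (limma). Tubb2b is dim. Its signal lay within the range of the 23 background control rows of the same array in all 6 hearts (2.64 to 7.44 over the arrays).

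Tubb2a, the close paralog of Tubb2b, had log2 signals of 8.70, 8.06 and 8.85 with AAV9-GFP and of 8.73, 8.51 and 10.00 with AAV9-Rbm24. Its log2 difference was 0.54 (-0.35 to 1.44, adjusted p = 0.766 from limma). AAV9-Rbm24 replicate 3 lay 1.38 above the mean of the other AAV9-Rbm24 hearts, the largest such excess among the beta-tubulins, and without it the log2 difference was 0.08. Tubb6, a beta-tubulin linked to muscle regeneration, had log2 signals of 7.70, 7.06 and 7.77 with AAV9-GFP and of 7.65, 7.73 and 8.60 with AAV9-Rbm24. The groups overlapped, with a log2 difference of 0.48 (-0.18 to 1.14, adjusted p = 0.714 from limma) that was 0.18 without AAV9-Rbm24 replicate 3.

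Tubb4b, a broadly expressed isotype that is also built into cilia, had log2 signals of 8.30, 7.82 and 8.88 in hearts given AAV9-GFP and of 7.97, 7.85 and 9.02 in those given AAV9-Rbm24. The third heart was the highest in each group, as it was for Tuba4a, and the group means differed by -0.05 (-0.88 to 0.77, adjusted p = 0.986 from limma). The sign turned with 3 of the hearts left out in turn, to between 0.10 and 0.22. Tubb3, the isotype used as a marker of neurons, had log2 signals of 4.48, 4.54 and 4.46 with AAV9-GFP and of 4.45, 4.42 and 4.66 with AAV9-Rbm24. All 6 values lie below the median of every array. They lie above the median of the background control rows (3.54 to 3.76 over the arrays) but within the range of these rows, so no level of Tubb3 clear of background was measured. Its log2 difference was 0.02 (-0.22 to 0.26, adjusted p = 0.982 from limma). Of the 6 measured Schwann cell and neuron markers, none passed in either direction and 4 had means below the median of every array.

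Tubb5, the main beta-tubulin of most tissues, is not among the 10 genes but belongs to the same heterodimer pool. It had log2 signals of 11.98, 11.87 and 12.03 in hearts given AAV9-GFP and of 12.23, 12.20 and 13.10 in those given AAV9-Rbm24. The groups did not overlap, and the log2 difference was 0.55 (0.01 to 1.09, unadjusted p = 0.0457, adjusted p = 0.582 from limma). Once more AAV9-Rbm24 replicate 3 was the highest heart, 0.89 above the mean of the other AAV9-Rbm24 hearts.

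**Figure D3:**
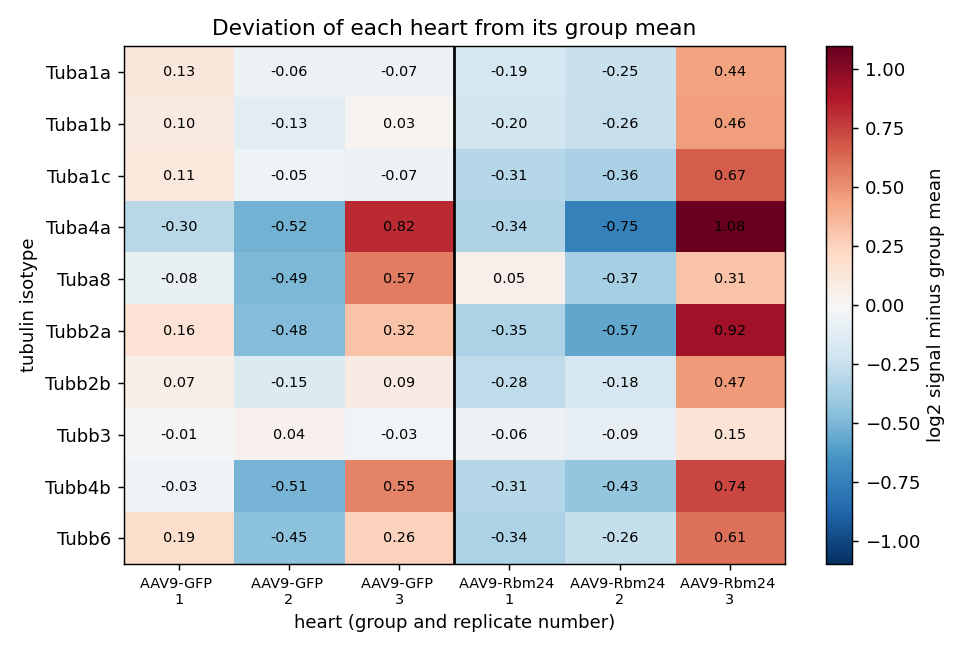
Log2 signal of each heart (columns) less its group mean for the 10 isotypes (rows), with red above and blue below the group mean. AAV9-Rbm24 replicate 3 is above its group mean for all 10 isotypes, by 0.15 (Tubb3) to 1.08 (Tuba4a).

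The isotypes varied together from heart to heart. AAV9-Rbm24 replicate 3 was the highest of the 6 hearts for 8 of the 10 isotypes, all but Tuba4a and Tuba8, which were highest in AAV9-GFP replicate 3. By comparison, that heart was the highest for 13.3% of all clusters and for 21.2% of those whose mean log2 signal reached 8. AAV9-GFP replicate 2 was the lowest heart for 5 isotypes, and for 3 of the 7 whose mean log2 signal reached 8, which is near its share of 43.1% among clusters that bright (17% of all clusters). AAV9-Rbm24 replicate 2 was the lowest for 4 isotypes, and for 12.6% of all clusters. After each group mean was subtracted, the Pearson correlation over the 6 hearts was over 0.8 for 30 of the 45 pairs of isotypes, with a median of 0.86, a lowest value of 0.22 (Tuba8 with Tubb3) and a highest of 0.99 (Tuba1a with Tuba1c). These values describe 6 hearts that share their arrays and normalization, and 1 heart carries much of them. Tuba4a ran closest to Tubb4b (0.98) and, among the alpha-tubulins, to Tuba8 (0.88), whereas Tuba1a, Tuba1b and Tuba1c ran closest to each other (0.98 to 0.99). Tuba1b ran nearly as close to Tubb2b (0.98).

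Of 6335 other named genes whose mean log2 signal reached 8, the 5 whose deviations from the group means were most like those of Tubb2b, the isotype with the smallest p, were Plat (Pearson r = 0.999), Spats2 (0.998), Myof (0.997), Fkbp1a (0.995) and Hnrnpk (0.995), each over 6 hearts. A value over 0.9 was reached by 322 genes. None of the 5 passed the adjusted threshold between groups (adjusted p = 0.169 to 0.931 from limma), and their log2 differences ran from 0.06 (Fkbp1a) to 1.24 (Myof).

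Markers of some other cell types, but not of all, were mostly highest in the same heart. All 5 measured markers of proliferating cells were highest in AAV9-Rbm24 replicate 3, where the log2 signal of Mki67, a protein of cycling cells, was 9.97 against 7.41 to 8.10 in the other hearts. Their summed linear signal was 332 to 398 in the AAV9-GFP hearts and 358 to 1364 in the AAV9-Rbm24 hearts, and no marker of this list passed between groups. Macrophage markers were highest in that heart for 7 of 8 genes, with a summed linear signal of 5773 to 10478 with AAV9-GFP and of 35358 to 85430 with AAV9-Rbm24, and 4 of the 8 passed upward. Of 7 measured fibroblast markers 3 passed upward and 5 were highest in that heart, with sums of 77140 to 86912 and of 150779 to 181681. Single genes carry much of these sums, Dcn 54.6% to 82.2% of the fibroblast sum, Lyz2 36.8% to 75.7% of the macrophage sum and Mki67 48.9% to 73.7% of the proliferation sum, and Dcn was highest in AAV9-Rbm24 replicate 1. No endothelial marker of 6 passed and none was highest there (sums of 51027 to 60138 and of 51372 to 53131). None of the 6 smooth muscle and pericyte markers or of the 6 measured Schwann cell and neuron markers was highest there either. Tubulin genes are expressed in all of these cells, and the part of each cell type in the tubulin signals was not tested.

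**Figure D4:**
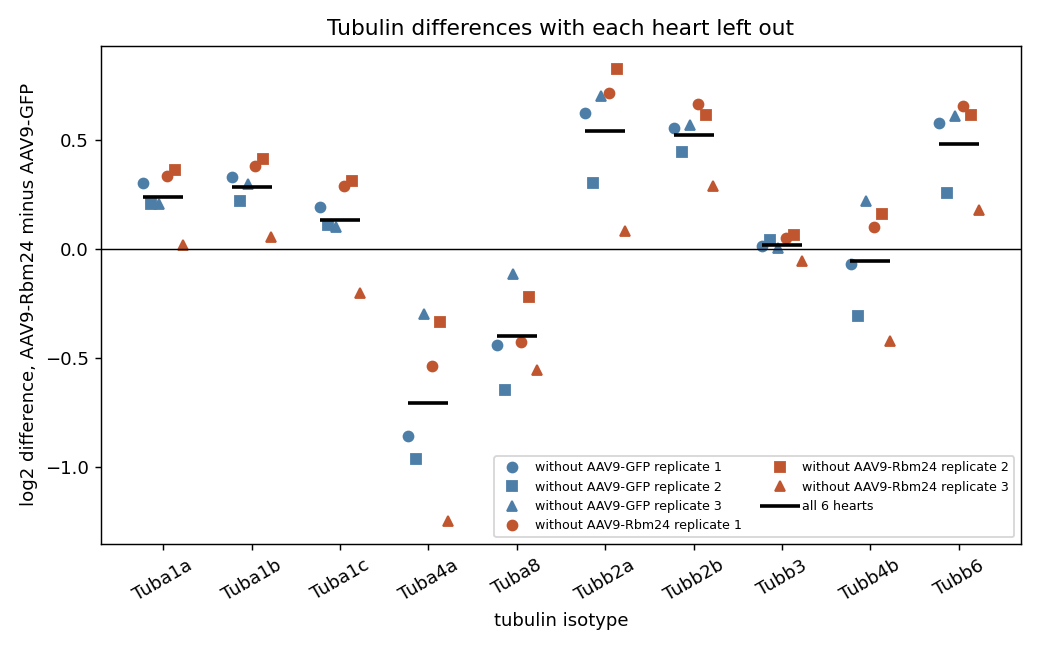
Log2 difference between the groups (vertical axis) for each isotype with all 6 hearts (black bar) and with each heart left out in turn (blue, an AAV9-GFP heart; orange, an AAV9-Rbm24 heart). Leaving out AAV9-Rbm24 replicate 3 gives the lowest value for every isotype but Tuba8.

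Leaving out AAV9-Rbm24 replicate 3 moved the values of 9 isotypes downward by more than leaving out any other heart did. The log2 differences of Tuba1c, Tubb3 and Tubb4b were then -0.20, -0.06 and -0.42, those of Tubb2a and Tubb6 were 0.08 and 0.18, and Tuba4a passed the thresholds of the methods (log2 difference -1.25, unadjusted p = 0.0140, adjusted p = 0.466 from limma). With AAV9-GFP replicate 2 left out as well, an alternative chosen after the data were seen, 3 isotypes passed these thresholds downward. The share of all clusters past these thresholds was not counted in either fit. Without both hearts, Tubb2b alone kept a positive difference (0.21, adjusted p = 0.499 from limma). No adjusted p under 0.05 arose for any isotype with any heart left out.

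Genes that fold, modify, bind or move along microtubules were taken from 10 lists of 135 genes, of which 123 had a cluster with their symbol alone. None of the 123 passed the adjusted threshold in either direction (limma), and none differed by 1.5-fold or more. At an unadjusted p under 0.05, 4 were higher (3.25%) and 6 were lower (4.88%), shares near the 4.08% and 4.33% of all clusters. Their groups did not overlap for 10 genes upward (8.13%, against 7.01% of all clusters) and for 16 downward (13%, against 7.71%). The median log2 difference of the 123 genes was 0.01.

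The 4 genes with higher means were Tubb5, the tubulin folding cofactor Tbcc (log2 difference 0.30, unadjusted p = 0.0295), Dclk1, a doublecortin-like kinase that binds microtubules (0.46, unadjusted p = 0.00151), and Kif5b, the heavy chain of the transport motor kinesin (0.39, unadjusted p = 0.0283), all with adjusted p of 0.159 or more in limma. Dclk1 had log2 signals of 6.11, 6.22 and 6.21 with AAV9-GFP and of 6.56, 6.70 and 6.67 with AAV9-Rbm24. It had the smallest p of the 123 genes (adjusted p = 0.159 from limma), its groups did not overlap, and AAV9-Rbm24 replicate 2, not 3, was its highest heart. The 6 genes with lower means were Tubd1, the delta-tubulin of centrioles (-0.27), Nicn1, a subunit of the tubulin polyglutamylase complex (-0.36), the microtubule-binding proteins Map7d1 (-0.30) and Tppp (-0.44), the severing enzyme Fign (-0.53) and the depolymerising kinesin Kif2b (-0.22), with adjusted p = 0.415 to 0.581 from limma. Kif2b lay below the median of every array in all hearts. Fign had log2 signals of 8.49, 8.47 and 8.96 with AAV9-GFP and of 8.07, 7.93 and 8.34 with AAV9-Rbm24, without overlap.

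**Figure D5:**
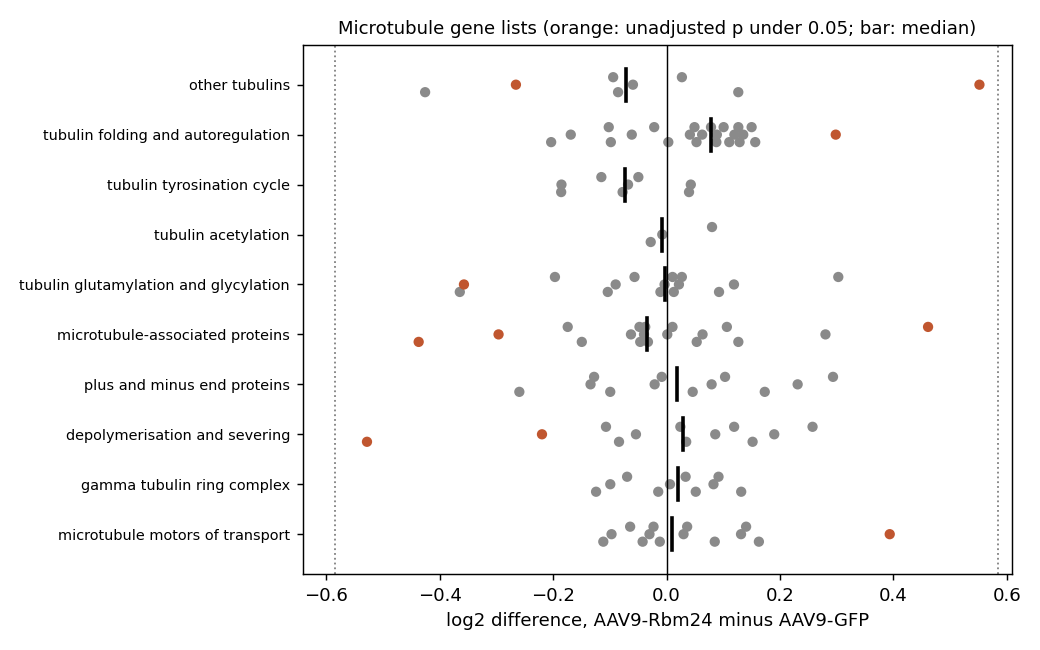
Log2 difference (horizontal axis, AAV9-Rbm24 minus AAV9-GFP) of the 123 measured genes in 10 microtubule lists (vertical axis), 1 point per gene, orange where the unadjusted limma p is under 0.05, with list medians as black bars. All points lie between the dotted lines at 1.5-fold, from -0.53 (Fign) to 0.55 (Tubb5).

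By role, the chaperones and cofactors that fold tubulin had 23 measured genes, which lay between -0.20 and 0.30 on the log2 scale with a median of 0.08. Ttc5, the sensor of tubulin mRNA autoregulation, had a log2 difference of 0.12 (-0.11 to 0.35, adjusted p = 0.803 from limma). In the list named for the tyrosination cycle, 8 genes were measured, Agbl1 to Agbl5 among them, and lay between -0.19 and 0.04. Vash1, Matcap1 and Agtpbp1 had no cluster with their symbol alone. Vash2 had a mean log2 signal of 5.16, below the median of every array. Neither vasohibin gene, Vash1 or Vash2, was therefore read out above the medians. The ligase Ttl, which restores the terminal tyrosine of alpha-tubulin, had a log2 difference of 0.04 (-0.20 to 0.29), and Svbp, the partner of the vasohibin carboxypeptidases that remove it, one of -0.05 (-0.27 to 0.17). For both genes the interval excludes a 1.5-fold difference between groups. The same holds for the acetyltransferase Atat1 (-0.30 to 0.25), the deacetylase Hdac6 (-0.13 to 0.29) and Map4, the main microtubule-associated protein of the heart (-0.18 to 0.43). These intervals are those of single genes, with no adjustment for their number.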

How the data were processed

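The authors deposited log2 signals of 6 arrays, 1 per heart. Per the labels, these were made with RMA in Affymetrix Expression Console (their versions, the library file and the build: not given in the sources used here). RMA subtracts background, equalizes arrays and combines the probes of a cluster, which compresses differences of dim and of very bright clusters. Of 72688 rows, 6732 controls were left out and 65956 clusters were tested without a filter. Gene symbols are those of the platform annotation, brought up to date with RefSeq (31292 clusters with 1 symbol, 1522 with several, 33142 with none). The group comparison used lmFit and eBayes of limma 3.58.1 under R 4.3.3 (no covariates, Benjamini-Hochberg over all clusters, two-sided, threshold 0.05), and the procedure was checked on simulated data. The number of arrays limits the precision. Replicates are separate mice of a group. The members, lists and alternatives were chosen with earlier results of these data known. The main named genes are the 10 isotypes, Tubb5, Rbm24 and the genes of the microtubule lists with an unadjusted limma p under 0.05. Also named are the 5 genes nearest in pattern to the isotype with the smallest p. Ttc5, Ttl, Svbp, Atat1, Hdac6 and Map4 were named for their role. Alternatives were signal minimums of 6 and 8, clusters with 1 symbol, trend and robust variances, quantile normalization, median centring, the replicate number as a block, weights per array, each heart left out, the methods' analysis of variance, cluster averages and fold minimums of 1.2 and 2.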

Additional observations from a re-analysis of the deposited data

How the results depend on the processing

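No isotype and no gene of the microtubule lists passed an adjusted p of 0.05 under any of the 19 alternatives run (smallest adjusted p of an isotype 0.165, limma). Of 185 values of single isotypes under the alternatives, 173 kept their direction and 12 turned it. With array weights Tuba1c was -0.033. With each heart left out, Tuba1c ran from -0.20 to 0.31, Tubb3 from -0.056 to 0.062 and Tubb4b from -0.42 to 0.22. Without AAV9-GFP replicate 2 and AAV9-Rbm24 replicate 3 together, Tuba1a was -0.016, Tuba1b -0.011, Tuba1c -0.23, Tubb2a -0.16, Tubb3 -0.034 and Tubb6 -0.045. The 0 isotypes past the thresholds of the methods in each direction became 0 to 1 higher (1, Tubb2b, without AAV9-Rbm24 replicate 1 or 2) and 0 to 1 lower (1, Tuba4a, without AAV9-Rbm24 replicate 3) with each heart left out, 1 lower with array weights (Tuba8), 3 lower (Tuba4a, Tuba8 and Tubb4b) without both hearts named above, and 1 higher with a fold minimum of 1.2. Why these counts moved was not tested. For these alternatives the share of all clusters past the thresholds was not counted. With the methods' analysis of variance no isotype had an unadjusted p under 0.05. Of the 123 microtubule genes, 6 were lower at an unadjusted p under 0.05 in limma, against 10 after renewed quantile normalization, 1 with median centring, 11 with array weights and 0 to 12 with each heart left out (12 without AAV9-GFP replicate 2).

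The labels give both groups the replicate numbers 1 to 3 without saying what they share. Deviations of same-numbered hearts correlated by 0.03, 0.10 and 0.15 over all clusters (0.14, 0.24 and 0.28 at a mean signal of at least 8). These values are positive but weak and do not settle whether the numbers pair the hearts. The main comparison took no account of the numbers. The AAV9-GFP hearts and AAV9-Rbm24 replicates 2 and 3 correlated best with their own number, and AAV9-Rbm24 replicate 1 did not. With the replicate number as a block, no isotype passed the adjusted threshold (smallest adjusted p = 0.165 from limma, Tuba4a at -0.71, interval -1.03 to -0.39, with an unadjusted p = 0.00157 and differences of -0.75, -0.94 and -0.44 within numbers 1, 2 and 3), while 3 isotypes (Tubb2a, Tubb2b and Tubb6) were higher and 2 (Tuba4a and Tuba8) lower at an unadjusted p under 0.05, where 4.42% and 4.88% of all clusters were, and 1 (Tuba4a) was lower at the thresholds of the methods. Over all clusters the block left 76 higher and 7 lower at the adjusted threshold, against 159 and 17 without it. Signals of Tubb3 and Tubb2b lie within the range of background controls, and the filter at 6 leaves out Tubb3 and that at 8 Tubb6, Tubb2b and Tubb3. Testing clusters with 1 symbol leaves out Tuba1b.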

Other observations

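Of the other tubulin clusters, the pseudogene Tubb4b-ps1 had log2 signals of 10.35, 9.77 and 11.03 in hearts given AAV9-GFP and of 9.99, 9.78 and 11.11 in those given AAV9-Rbm24. The order of the hearts within each group was that of Tubb4b, and the group difference was -0.09 (adjusted p = 0.977 from limma). The pseudogene Tubb2a-ps2 had a log2 difference of 0.38 (unadjusted p = 0.0428, adjusted p = 0.570 from limma), near the array medians (means of 5.86 and 6.24). The gamma-tubulin gene Tubg1 had one of -0.43 (adjusted p = 0.691 from limma), with AAV9-GFP replicate 3 its highest heart. The platelet isotype Tubb1, the testis isotypes Tuba3a and Tuba3b, which share 2 clusters, and Tubal3 had mean log2 signals of 5.34 to 5.76 over all hearts, near the array medians.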
